A study of Mus musculus with 8 samples.

Results

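The 10 genes described here encode the core of nuclear factor kappa B (NF-κB) signaling, and were chosen by name, with earlier results of these data known. They are the 5 DNA-binding subunits (Rela, Relb, Rel, Nfkb1 and Nfkb2), the 3 subunits of the IκB kinase (IKK) complex (Chuk, Ikbkb and Ikbkg) and 2 MAP3 kinases (Map3k8 and Map3k14). All 10 were among the 23413 gene symbols counted by RNA-seq and passed the filter on low counts in every comparison. The RNA came from tumor-associated macrophages (TAMs), sorted as CD45+F4/80+CD11b+Gr-1- cells from B16F10 tumors. B16F10 is a mouse melanoma line, injected here under the flank skin of male C57BL/6 mice 8 to 10 weeks old. The mice were dosed on days 6 and 12, and the tumors were taken on day 18. Of 8 mice, 2 received DMSO, the solvent, 4 received thiostrepton, a thiopeptide antibiotic, by intraperitoneal (I.P.) injection, and 2 received it by subcutaneous injection beside the tumor (S.C.) at 20 mg/kg. The I.P. dose of these mice and the route of the DMSO mice were not given in the sources used here. The paper calls the S.C. dose lower than the I.P. doses of its tumor growth groups. Each library was from 1 mouse.

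In resting macrophages most NF-κB dimers are held in the cytoplasm by IκB proteins. In the canonical pathway, Toll-like, TNF and IL-1 receptors activate the IKK complex, which marks IκB for destruction and releases dimers of RelA or c-Rel with p50. In the noncanonical pathway, NIK and IKKα drive the processing of p100 to p52, which pairs with RelB. These steps are controlled mainly at the protein level, and RNA counts measure only the transcripts of the components. NF-κB also switches on its own inhibitors and some of its own subunits, and is best known in macrophages for inflammatory cytokine genes.

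Rel and Nfkb2, 2 subunit genes with higher counts in S.C. mice, are shown first with the DNA before their starts, and Rela, for which no comparison passed the test, is shown beside them. The sequences are the 250 bases before the RefSeq start on GRCm38.p6 (mm10), read 5′ to 3′ in the direction of transcription. Capitals mark letters that match the κB consensus on either strand. The windows are chr11:23770970-23771219 on the minus strand for Rel, and on the plus strand for Nfkb2 chr19:46304487-46304736 (start a of 3 listed) and chr19:46305680-46305929 (start c), and for Rela chr19:5637291-5637540.
Rel: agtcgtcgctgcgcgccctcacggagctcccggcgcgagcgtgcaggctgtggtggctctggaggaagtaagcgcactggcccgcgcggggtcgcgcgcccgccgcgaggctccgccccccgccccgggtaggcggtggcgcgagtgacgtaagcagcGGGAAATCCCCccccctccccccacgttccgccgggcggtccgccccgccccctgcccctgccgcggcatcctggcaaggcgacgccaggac
Nfkb2 start a: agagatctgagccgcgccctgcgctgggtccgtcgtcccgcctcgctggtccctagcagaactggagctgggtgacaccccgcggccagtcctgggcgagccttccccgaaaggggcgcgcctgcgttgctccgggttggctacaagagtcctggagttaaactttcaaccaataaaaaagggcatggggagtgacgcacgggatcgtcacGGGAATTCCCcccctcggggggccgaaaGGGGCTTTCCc
Nfkb2 start c: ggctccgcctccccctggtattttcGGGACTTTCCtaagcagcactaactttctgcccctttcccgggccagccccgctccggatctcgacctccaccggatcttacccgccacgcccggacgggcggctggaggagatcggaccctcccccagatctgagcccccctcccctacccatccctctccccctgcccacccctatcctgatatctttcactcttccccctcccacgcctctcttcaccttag
Rela: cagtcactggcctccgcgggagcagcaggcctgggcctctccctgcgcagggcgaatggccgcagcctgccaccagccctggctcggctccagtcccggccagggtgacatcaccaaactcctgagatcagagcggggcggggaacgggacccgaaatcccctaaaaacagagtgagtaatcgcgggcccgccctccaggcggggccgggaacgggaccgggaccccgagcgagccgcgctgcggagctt

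The Rel window held 2 overlapping matches, with first bases at -92 and -91 from the start. Start a of Nfkb2 had 2 matches, at -39 and -11, start c had 1, at -225, and the remaining listed start, between them, had none. Promoters of 6 members were read, 11 windows in all, and the consensus was found in 2 of the 6 genes. Chromosome 18, which holds Map3k8, was left out of this reading, and Relb, Nfkb1 and Ikbkb had no listed promoter. No match was found in the windows of Rela, Chuk, Ikbkg and Map3k14. Over all 32851 listed promoters of this length 5.0% held a match, and 5.7% of genes had 1 in any listed promoter. A match describes the letters of the window and is not evidence of binding. The genes shown were picked by their results in these data, and whether a match bears on their counts was not tested.

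The libraries held 14127506 to 17577466 counts, so that 3 counts, taken as the floor, were 0.169 to 0.218 CPM. CPM are counts scaled to a common library size, by TMM over the 8 mice. The 10 macrophage markers were detected in all mice, with summed levels of 20200 to 34270 CPM. Lyz2 alone was at 13320 to 25050 CPM, so the sum does not show equal levels of each marker. Emr1 was at 318 CPM in I.P. mouse 1, 360 in S.C. mouse 1 and 1020 in S.C. mouse 2. In the same mice Csf1r was at 504.5, 353 and 1128 CPM. Cd68, C1qa and Fcgr1 were lower in S.C. mouse 2 than in S.C. mouse 1. The 2 S.C. mice differed from each other, at least 2-fold at 37.6% of the 11680 genes tested against DMSO and at 7 of the 10 members, against 6.51% of the genes and 1 member for the 2 DMSO mice. For that reason the main results for S.C. are given with and without each S.C. mouse. S.C. mice also had more counts of neutrophil markers, 293 and 498 CPM summed over 9 genes against 133 to 193 in the other mice, and 5 of the 9 rose by S.C. injection against DMSO, where 5.06% of all genes were called. The 5 (Ngp, Ltf, S100a9, Camp and S100a8) were much higher in S.C. mouse 2, with Ngp at 60.3 CPM against 4.44 in S.C. mouse 1, while Cxcr2, which was not called, made up 171 of the 293 CPM in S.C. mouse 1. The defining marker Ly6g was not among the symbols. Melanoma markers (5 genes) reached 2936 CPM in S.C. mouse 1 and lay between 427 and 1645 in the others. T and NK cell markers (10 genes) summed to 40.8 and 25.5 CPM in S.C. mice, against 0.486 to 15.6 elsewhere, and B cell markers (5 genes) to 29.8 and 25.5, against 8.81 to 20.7. Dendritic cell genes (6) summed to 13.99 and 9.465 CPM against 2.07 to 7.19, and 6 fibroblast and endothelial genes to at most 8.46 CPM in any mouse. Of the dendritic cell sums, Ccr7 made up 11.6 CPM in S.C. mouse 1, and Xcr1 and Ccr7 were at 5.90 and 3.28 in S.C. mouse 2. Clec9a had no counts in either, so these sums do not show a rise of each marker. The part of these cells in the results was not tested, and in bulk samples a change in the share of a cell type and a change of RNA per cell cannot be told apart.

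**Figure D1:**
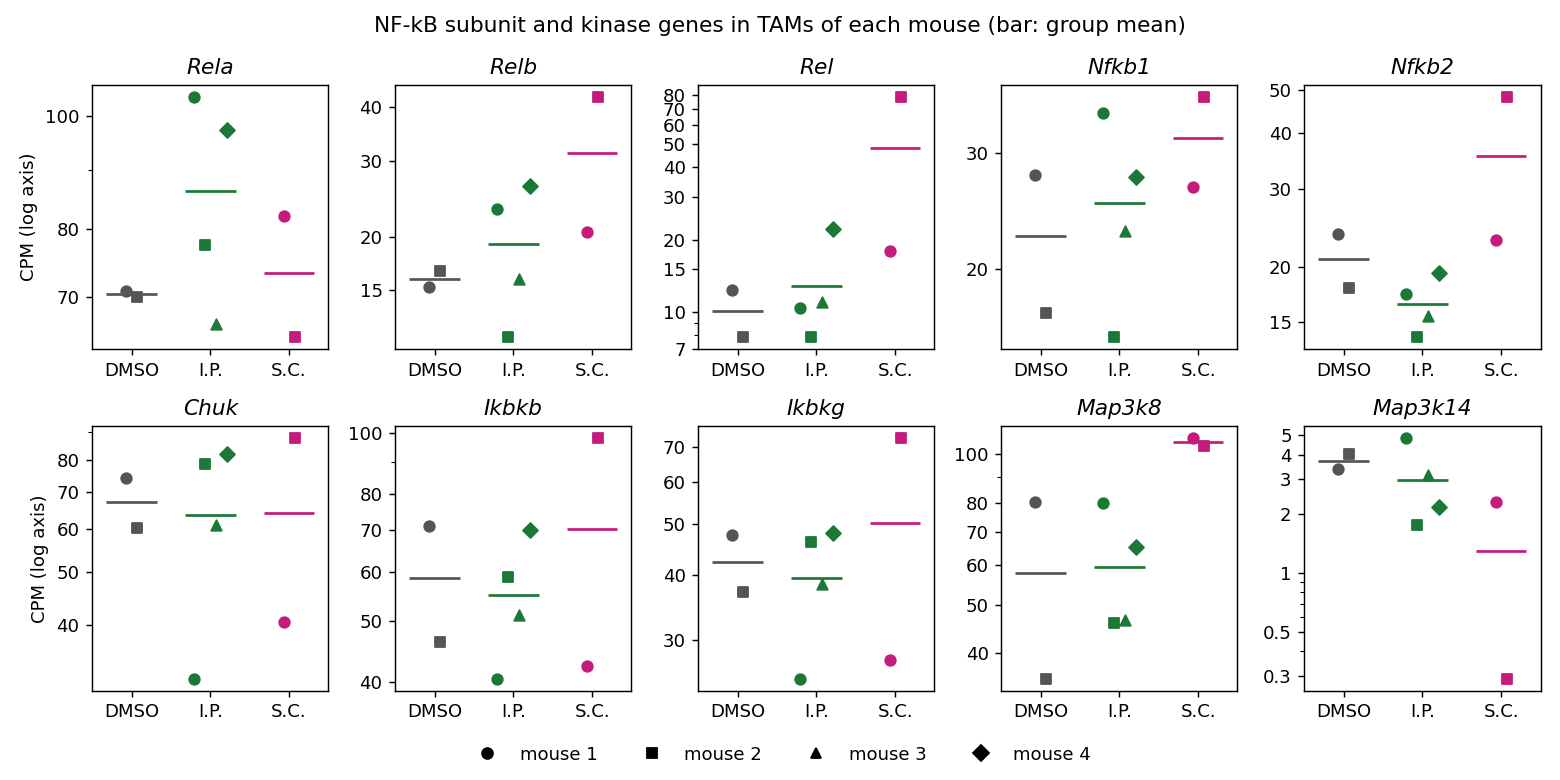
Each panel plots 1 gene, with the group on the x axis and CPM on a log y axis, 1 marker per mouse and a bar at the group mean. S.C. mouse 2 was highest for 7 of the 10 genes, and the IKK genes Chuk, Ikbkb and Ikbkg were lowest in I.P. mouse 1 and next lowest in S.C. mouse 1.

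Rela, which encodes RelA (p65), the main activating subunit of the canonical pathway, was the steadiest member. It was at 70.7 and 69.9 CPM in DMSO mice, at 104, 77.5, 66.4 and 97.4 in I.P. mice and at 82.1 and 64.6 in S.C. mice. The groups overlapped, and the highest mouse was 1.61-fold above the lowest. The log2 fold change was 0.29 ± 0.25 (SE) for I.P. over DMSO, 0.03 ± 0.32 for S.C. over DMSO and -0.23 ± 0.29 for S.C. over I.P., by edgeR's quasi-likelihood test, and none passed. The S.C. over DMSO value has no stable sign, since it was -0.12 with scaling by library size only.

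Rel encodes c-Rel, a subunit made mostly by blood cells. It was at 12.3 and 7.81 CPM in DMSO mice, at 10.3, 7.84, 11 and 22.2 in I.P. mice and at 17.9 and 78.7 in S.C. mice. Both S.C. mice lay above both DMSO mice, but S.C. mouse 1 lay below I.P. mouse 4. Rel rose by S.C. against DMSO by the study's criterion, an unadjusted P under 0.05 and at least 2-fold, with a log2 fold change of 2.25 ± 0.77 (4.74-fold, adjusted p = 0.822 by edgeR). Against I.P. mice it rose 3.76-fold, or 1.91 ± 0.60 on the log2 scale (adjusted p = 0.412 by edgeR). Neither passed the Benjamini-Hochberg adjustment of the edgeR test over all genes. Both calls rest on S.C. mouse 2. Without it the log2 fold change was 0.78 against DMSO and 0.47 against I.P. mice, neither of which passed, and without S.C. mouse 1 it was 2.95 and 2.61. The call against DMSO was also lost without DMSO mouse 2 (1.95). In S.C. mouse 2, Rel was 4.4-fold above S.C. mouse 1, and the cause of this gap was not tested. I.P. mice did not differ from DMSO mice beyond their spread (0.35 ± 0.45).

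Relb encodes RelB, the partner of p52 in the noncanonical pathway. It was at 15.3 and 16.7 CPM in DMSO mice, at 23.1, 11.7, 15.9 and 26.2 in I.P. mice and at 20.5 and 42.2 in S.C. mice. Both S.C. mice were above both DMSO mice, and S.C. mouse 1 lay within the I.P. range. The log2 fold change of S.C. over DMSO was 0.95 ± 0.50 and did not pass. It was 1.37 without S.C. mouse 1, which passed, and 0.30 without S.C. mouse 2, which did not. The other differences were 0.26 ± 0.35 for I.P. over DMSO and 0.70 ± 0.44 for S.C. over I.P. mice, and neither passed. The latter was 1.13 without S.C. mouse 1, which passed, and 0.09 without S.C. mouse 2.

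Nfkb1 encodes p105, the precursor of p50. It was at 27.7 and 17.2 CPM in DMSO mice, at 34.5, 15.8, 22.9 and 27.6 in I.P. mice and at 26.6 and 36.5 in S.C. mice. Each group overlapped the others. The log2 fold changes were 0.16 ± 0.36 for I.P. over DMSO, 0.47 ± 0.44 for S.C. over DMSO and 0.33 ± 0.38 for S.C. over I.P. mice, and none passed. The S.C. over DMSO value was 0.68 without S.C. mouse 1 and 0.19 without S.C. mouse 2, and the S.C. over I.P. value 0.53 and 0.08.

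Nfkb2 encodes p100, the precursor of p52. It was at 23.7 and 17.9 CPM in DMSO mice, at 17.3, 13.9, 15.5 and 19.3 in I.P. mice and at 22.9 and 48.3 in S.C. mice. Both S.C. mice were above all 4 I.P. mice, and S.C. mouse 1 was between the DMSO mice. Nfkb2 rose in S.C. over I.P. mice by 1.11 ± 0.38 on the log2 scale (2.16-fold, adjusted p = 0.459 by edgeR), while I.P. over DMSO was -0.34 ± 0.26 and S.C. over DMSO was 0.75 ± 0.50, and neither passed. The latter was 1.19 without S.C. mouse 1, which passed, and 0.08 without S.C. mouse 2. The call was lost without S.C. mouse 2 (0.47), without mouse 2 of the I.P. group (1.03) and without mouse 3 of that group (1.05). Nfkb2 exons overlap those of Psd on the other strand, and whether the counting used strand was not stated.

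Chuk (IKKα), Ikbkb (IKKβ) and Ikbkg (the scaffold NEMO) form the IKK complex. Chuk was at 74.2 and 60.2 CPM in DMSO mice, at 31.99, 78.7, 60.9 and 82.2 in I.P. mice and at 40.6 and 87.7 in S.C. mice. Ikbkb was at 71.0 and 46.4 CPM in DMSO mice, at 40.5, 58.7, 51.2 and 69.95 in I.P. mice and at 42.4 and 98.1 in S.C. mice. Ikbkg was at 47.6 and 37.0 CPM in DMSO mice, at 25.3, 46.2, 38.4 and 48.1 in I.P. mice and at 27.5 and 72.9 in S.C. mice. All 3 genes were lowest in I.P. mouse 1, next lowest in S.C. mouse 1 and highest in S.C. mouse 2. Their sum was 97.8 CPM in I.P. mouse 1, 111 in S.C. mouse 1 and 259 in S.C. mouse 2, against 144 to 200.2 in the other 5 mice. The DMSO mean was 2.10-fold above I.P. mouse 1 for Chuk, 1.45-fold for Ikbkb and 1.67-fold for Ikbkg.

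None of the 3 IKK genes passed the test in any comparison. The log2 fold changes for I.P. over DMSO were -0.08 ± 0.37 for Chuk, -0.09 ± 0.29 for Ikbkb and -0.10 ± 0.31 for Ikbkg. For S.C. over DMSO they were -0.09 ± 0.46, 0.24 ± 0.50 and 0.22 ± 0.54, and for S.C. over I.P. mice 0.02 ± 0.45, 0.35 ± 0.38 and 0.35 ± 0.44, in the same order. The S.C. group holds both a low and a high mouse, so its mean describes neither. Against DMSO, the IKK genes were at -0.79, -0.53 and -0.68 on the log2 scale in S.C. mouse 1 alone, and at 0.36, 0.72 and 0.76 in S.C. mouse 2 alone. Chuk in mouse 1 and Ikbkg in mouse 2 had an unadjusted P under 0.05, but no change reached 2-fold. In these fits the lone mouse is assumed to vary like the mice of the other group.

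S.C. mouse 1, and in part I.P. mouse 1, also had fewer counts on longer transcripts. For genes in the fourth of 5 length classes the median deviation from the mean of all mice was -0.14 on the log2 scale in I.P. mouse 1 and -0.21 in S.C. mouse 1, and in the shortest class it was 0.21 and 0.31. In the longest class it was -0.29 in S.C. mouse 1, but 0.04 in I.P. mouse 1. S.C. mouse 2 had the opposite order, -0.19 in the shortest class and 0.21 in the fourth. With each library's trend against length removed, the number of members called was the same in all 3 comparisons. No IKK gene was called with or without this step, so that number does not bear on them. For S.C. over DMSO, Chuk was then at -0.066 ± 0.385, Ikbkb at 0.297 ± 0.394 and Ikbkg at 0.254 ± 0.422. The SEs before were 0.456, 0.503 and 0.537. The part of RNA quality in the low IKK counts was not tested. Ikbkg exons overlap those of G6pdx on the other strand.

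**Figure D2:**
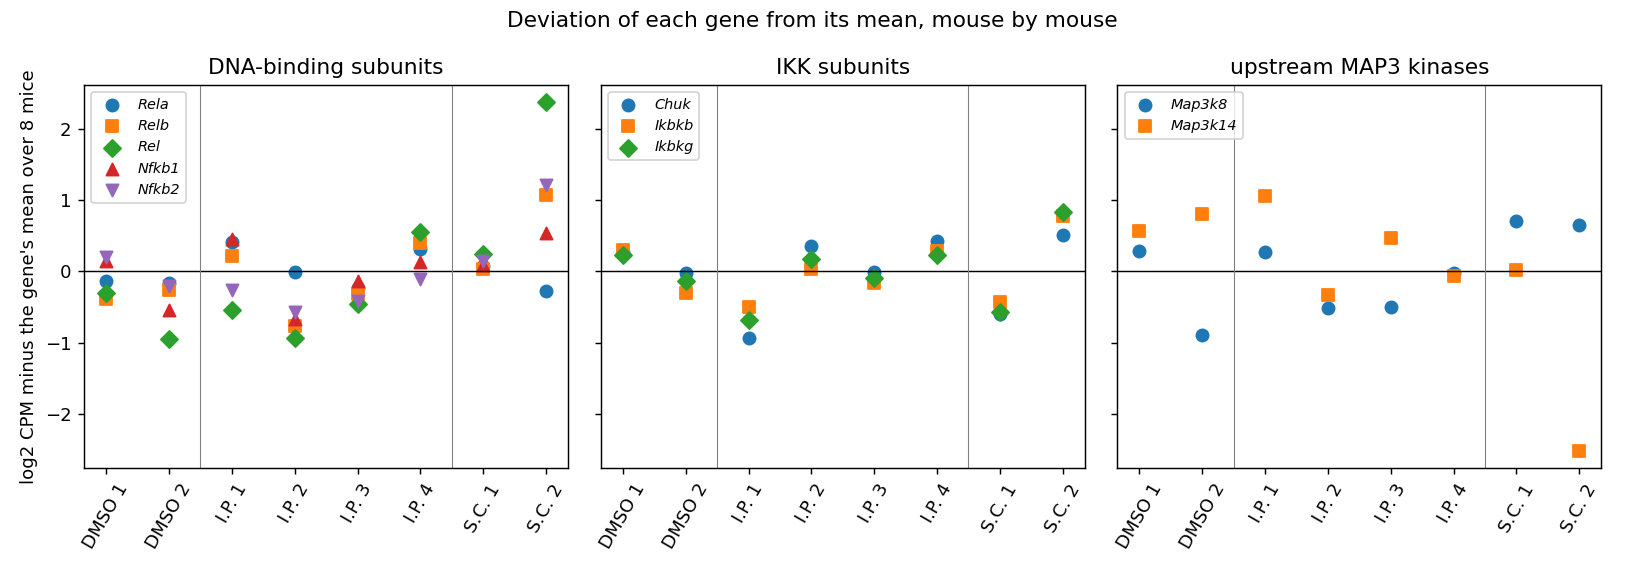
Each point is the log2 CPM of a gene in 1 mouse minus the mean of that gene over the 8 mice, with mice on the x axis and genes split by role. The IKK genes move together from mouse to mouse, while in S.C. mouse 2 Rel and Nfkb2 stand high, Rela below its mean and Map3k14 far below.

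Map3k8 encodes TPL2, which is held by p105 and carries Toll-like receptor signals to ERK. It was at 80.04 and 35.5 CPM in DMSO mice, at 79.8, 46.0, 46.6 and 65.1 in I.P. mice and at 108 and 104 in S.C. mice. The S.C. mice agreed closely and both lay above all 6 other mice. DMSO mouse 1 was 2.25-fold above DMSO mouse 2. S.C. over I.P. was 0.83 ± 0.30 on the log2 scale (unadjusted P under 0.05, adjusted p = 0.495 by edgeR), below the 2-fold needed for a call, and S.C. over DMSO was 0.85 ± 0.46 and did not pass. The S.C. over DMSO value was 0.82 without S.C. mouse 1 and 0.84 without S.C. mouse 2, but it turned on the DMSO mice. It was 1.54 without DMSO mouse 1, which passed, and 0.37 without DMSO mouse 2, which did not. I.P. over DMSO was 0.03 ± 0.37, and -0.04 with scaling by library size only.

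Map3k14 encodes NIK, the kinase that starts the noncanonical pathway and is kept low by constant breakdown of the protein. It was at 3.39 and 4.02 CPM in DMSO mice, at 4.84, 1.76, 3.16 and 2.16 in I.P. mice and at 2.29 and 0.291 in S.C. mice. In counts these were 50 and 70, then 76, 29, 56 and 37, then 34 and 4, so the value of S.C. mouse 2 is close to the floor of 3 counts. Both S.C. mice were below both DMSO mice, but S.C. mouse 1 was inside the I.P. range. The log2 fold change of S.C. over DMSO was -1.55 ± 1.22, of S.C. over I.P. mice -1.20 ± 1.03 and of I.P. over DMSO -0.32 ± 0.54, and none passed. Without S.C. mouse 1 it was -3.66 against DMSO and passed, and without S.C. mouse 2 it was -0.76 and did not. Against I.P. mice it was -3.32, which passed, and -0.38, which did not.

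Over the 10 members, I.P. injection gave 0 calls, against 2.0% of the 12174 genes tested, and 0 members had an unadjusted P under 0.05, against 3.43%. The likelihood ratio test of edgeR and DESeq2 also called 0 members. The groups did not overlap for 0 members, against 14.2% of genes. Members were higher in 5 cases and lower in 5, with a median log2 fold change of -0.03 against 0.02 for all genes tested. By S.C. injection 1 member (Rel) was called, against 5.06% of 11680 genes, and the same 1 had an unadjusted P under 0.05, against 5.41%. Groups did not overlap for 4 members, Rel, Relb and Map3k8 being higher and Map3k14 lower, against 34.3% of genes, a share near the background. The median of the 10 was 0.35 against 0.02 for all genes, with 8 higher and 2 lower. In S.C. against I.P. mice 2 members (Rel and Nfkb2) were called, against 7.05% of 12206 genes, 3 had an unadjusted P under 0.05, against 8.59%, and 2 (Nfkb2 and Map3k8) did not overlap, against 18.5%. The median was again 0.35, against 0.02 for all genes. With an adjusted p under 0.05, edgeR's quasi-likelihood test called 0 members and 0% of all genes in each comparison. Adjusted p of the members that were not called lay between 0.98 and 0.993 for I.P. over DMSO, were 1 for S.C. over DMSO and lay between 0.495 and 0.997 for S.C. over I.P. mice. The comparisons share mice, so their values are not independent of each other.

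**Figure D3:**
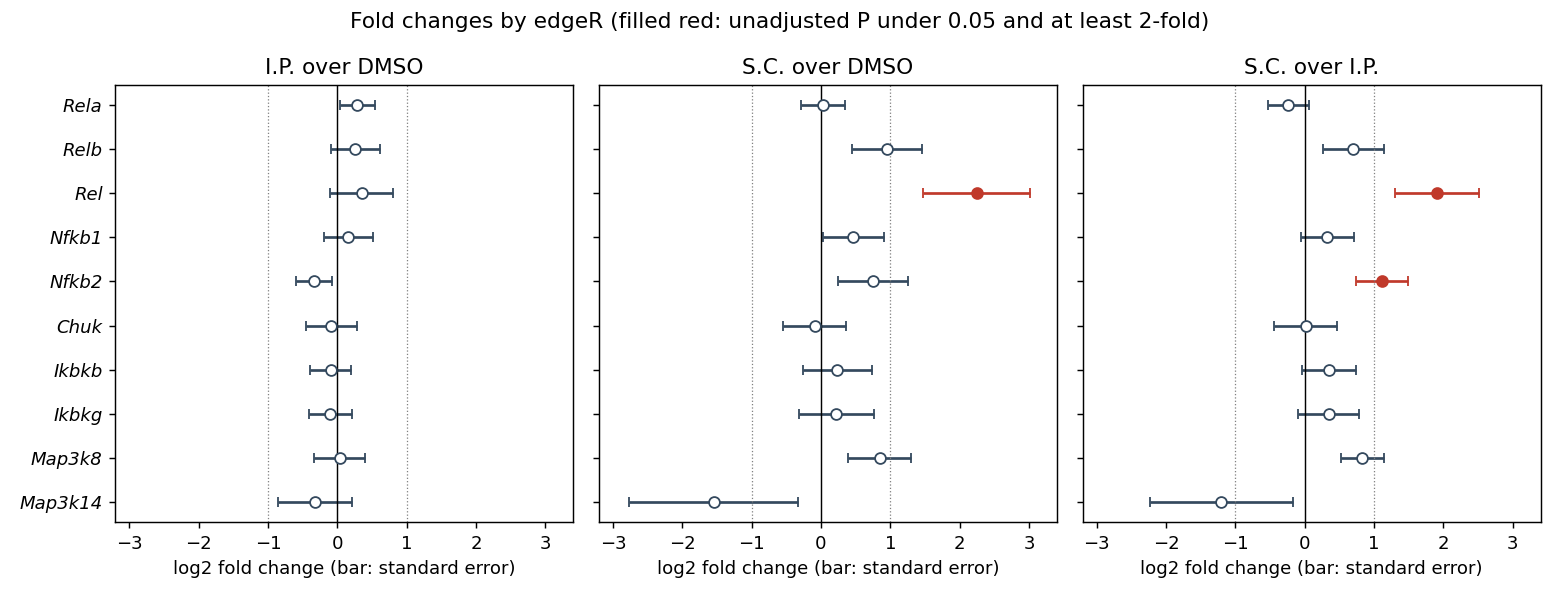
Log2 fold changes of the 10 genes by edgeR for the 3 comparisons, with bars of 1 standard error and dotted lines at 2-fold, filled red where unadjusted P was under 0.05 and the change at least 2-fold. Only Rel for S.C. over DMSO, and Rel and Nfkb2 for S.C. over I.P., are filled.

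Leaving out S.C. mouse 1 raised the number of members called to 4 in both S.C. comparisons, and leaving out S.C. mouse 2 lowered it to 0. Calls over all genes rose in each of these fits, which rest on a lone S.C. mouse. Against DMSO 24.5% of genes were called without S.C. mouse 1 and 27.8% without S.C. mouse 2, and against I.P. mice 15.6% and 16.4%. The 4 against DMSO were Rel, Relb (1.37), Nfkb2 (1.19) and Map3k14 (-3.66). For S.C. over DMSO without DMSO mouse 1, Rel was at 2.60 and Map3k8 at 1.54. Without DMSO mouse 2 they were at 1.95 and 0.37. For S.C. over I.P. there were 3 calls without I.P. mouse 1, where 7.69% of all genes were called. There was 1 without I.P. mouse 2 and 1 without I.P. mouse 3, where 5.23% and 5.61% of all genes were called.

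The balance between subunits was followed as the log2 ratio of 2 genes within a library. Rel over Rela was -2.48 and -3.08 in DMSO mice, -3.27, -3.23, -2.54 and -2.11 in I.P. mice and -2.17 and 0.28 in S.C. mice. Only in S.C. mouse 2 did Rel have more counts than Rela, by 1.22-fold, and S.C. mouse 1 lay within the I.P. range. The ratios do not account for gene length. Per kilobase of merged exons Rel was at 10.5 CPM in S.C. mouse 2, below Rela at 21. Relb over Rela was -0.61 in S.C. mouse 2 and between -2.68 and -1.87 in the other 7 mice. Nfkb2 over Nfkb1 was -0.22 and 0.06 in DMSO mice, between -0.97 and -0.18 in I.P. mice and -0.21 and 0.40 in S.C. mice. Ikbkb over Chuk stayed between -0.42 and 0.33 in all mice. By the exact two-sided permutation test, S.C. against I.P. mice gave p = 0.133 for Relb over Rela, for Rel over Rela and for Nfkb2 over Nfkb1 (adjusted p = 0.532 over 12 tests), with differences of 0.89, 1.84 and 0.65. The smallest p possible was 0.0667 for I.P. against DMSO and for S.C. against I.P. mice, and 0.333 for S.C. against DMSO mice, so none of these comparisons could reach 0.05.

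**Figure D4:**
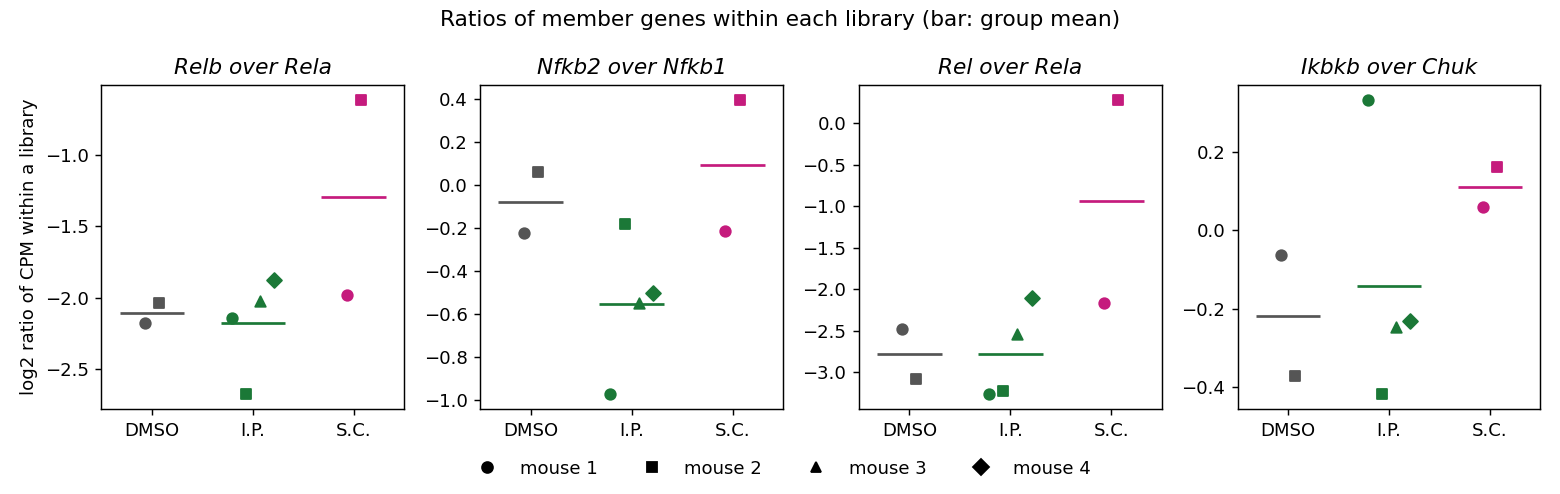
Log2 ratios of CPM within each library, 1 panel per gene ratio, with the group on the x axis, 1 marker per mouse and a bar at the group mean. S.C. mouse 2 lies above all other mice for Relb over Rela, Nfkb2 over Nfkb1 and Rel over Rela.

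Levels of different genes were compared per kilobase of merged exons (CPM per kb, an RPKM-like value). In DMSO mice the order was Rela (22.9), Chuk (13.2), Map3k8 (12.8), Ikbkg (5.22), Nfkb2 (4.54), Relb (4.11), Ikbkb (3.08), Nfkb1 (1.86), Rel (1.35) and Map3k14 (0.566). The ranges of the 2 mice overlapped for 4 of the 9 neighboring pairs, Chuk and Map3k8, Ikbkg and Nfkb2, Nfkb2 and Relb, and Nfkb1 and Rel. In the I.P. and in the S.C. group 7 of 9 pairs overlapped. In S.C. mice Map3k8 reached 23.5, beside 23.9 for Rela, and Rel reached 6.47 on average, with 2.40 in mouse 1 and 10.5 in mouse 2. The length used matters for genes with long minor transcripts. Per kilobase of the longest transcript, Ikbkb in DMSO mice was at 12.1, above Ikbkg, and Nfkb1 at 5.41.

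**Figure D5:**
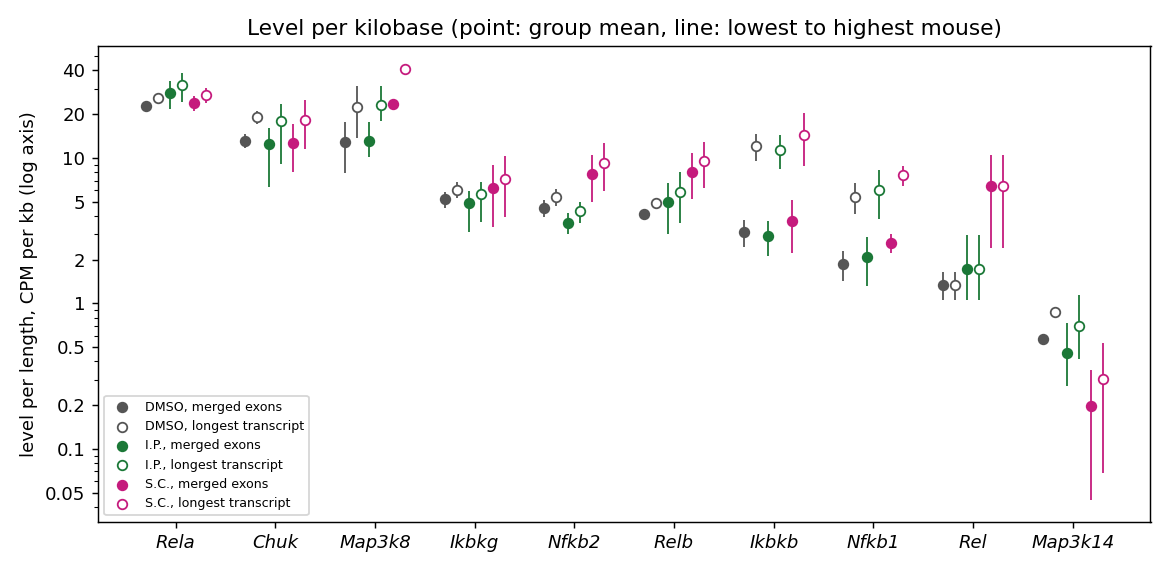
CPM per kilobase on a log axis for the 10 genes in order of the DMSO mean, with group means as points and lines from the lowest to the highest mouse, filled for merged exons and open for the longest transcript. Rela leads and Map3k14 is lowest in DMSO and I.P. mice by either length, and Ikbkb and Nfkb1 differ most between the lengths.

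The profiles most like each member over the 8 mice were found by the root mean square difference of centered log2 CPM among 9327 or 9328 genes. Pmaip1 (0.27) and Prdm1 (0.41) were nearest to Rel, with the largest distances of the 10 members, together with Mdc1 (0.27) and Polr3f (0.30) for Map3k14. For Relb they were Cwc25 (0.18) and Slc39a14 (0.20), for Nfkb2 Ralgds (0.15) and Narf (0.17), and for Nfkb1 Ncf4 (0.11) and Mycbp2 (0.14). Rela was followed by Slc25a38 (0.09) and Pisd (0.09), and Map3k8 by Btg1 (0.21) and Ramp1 (0.21). The IKK genes had close neighbors, Rpe (0.11) and Gtpbp10 (0.12) for Chuk, Supt5 (0.06) and Tmem183a (0.09) for Ikbkb, and Gapvd1 (0.08) and Trnt1 (0.10) for Ikbkg. These are descriptions over 8 libraries that share the difference between the S.C. mice.

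Other genes of the pathway were read by role, from lists chosen with earlier results of these data known. Of 6 inhibitors and atypical IκB genes, 0 were called by I.P. and 4 by S.C. injection, against 2.0% and 5.06% of all genes, with medians of 1.11 and 1.98 (log2) against 0.02 for all genes in each. Nfkbia, which encodes IκBα, the inhibitor that NF-κB induces, was at 101 and 109 CPM in DMSO mice, at 975, 85.3, 158 and 151 in I.P. mice and at 549 and 613 in S.C. mice. I.P. mouse 1 stood far above the other I.P. mice, while the S.C. mice were each far above the DMSO mice. Nfkbia (2.45 ± 0.30), Nfkbid (3.13 ± 0.43), Nfkbiz (3.19 ± 0.62) and Nfkbie (1.51 ± 0.48) rose by S.C. injection, with adjusted p of 0.533 to 0.771 by edgeR. Nfkbie was named after its values were seen. For each of the 4, both S.C. mice lay above both DMSO mice. Over all genes tested, 34.3% showed no overlap between these groups. I.P. mouse 1 and S.C. mouse 1, with the lowest IKK counts, summed to 1489 and 865 CPM over the 6 inhibitors, and S.C. mouse 2, with the highest IKK counts, to 1126, while the other 5 mice were at 191.5 to 302.

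Of 21 adaptors and kinases upstream of IKK, such as Myd88, Traf6 and Map3k7, 0 were called by either route. The medians were 0.05 and 0.07 (log2), against 0.02 for all genes in each. In S.C. against I.P. mice 1 was called, Birc3 (1.27), an inhibitor of apoptosis that restrains NIK, named after its values were seen, against 7.05% of all genes. Birc3 was at 112 CPM in S.C. mouse 2 and at 27 in S.C. mouse 1, inside the I.P. range of 21.9 to 35.9, and without S.C. mouse 2 no adaptor or kinase was called. Of 18 textbook targets of NF-κB, 15 passed the filter in both comparisons with DMSO. I.P. injection called 2 of them, Tnfaip2 (1.25) and Il1a (1.13), and S.C. injection 4, Cd83 (2.52), Il1a (2.09), Tnfaip3 (2.75) and Tnip1 (1.41), the last named after its values were seen. The background over all genes was 2.0% and 5.06%, and the medians of the targets were 0.45 and 0.81 (log2), against 0.02 for all genes in each. Without S.C. mouse 1 there were 8 calls and without S.C. mouse 2 there were 7, of 17 targets tested, where 24.5% and 27.8% of all genes were called. Of the 21 adaptors and kinases 5 and 2 were called in those fits, shares no higher than these. Tnfaip3, which encodes A20, an enzyme that limits NF-κB signaling, was at 120.3 and 568 CPM in S.C. mice and at 35.5 to 174 in the other mice. Mouse 2 was the higher of the S.C. mice for Tnfaip3, as for Rel, Relb, Nfkb1, Nfkb2 and the IKK genes, but not for Rela, Map3k8 and Map3k14. An order of 2 mice does not tie these genes to each other.

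By the GENCODE vM21 annotation of GRCm38, all 10 members are protein-coding genes. Rela (chr19:5637483-5648130, plus strand), Nfkb2 (chr19:46304320-46312385, plus) and Chuk (chr19:44073335-44107480, minus) lie on chromosome 19. Rel (chr11:23736847-23770970, minus) and Map3k14 (chr11:103219762-103267472, minus) lie on chromosome 11. Relb is at chr7:19606217-19629438 (minus), Nfkb1 at chr3:135584655-135691547 (minus), Ikbkb at chr8:22659212-22706589 (minus), Map3k8 at chr18:4331327-4353015 (minus) and Ikbkg at chrX:74393290-74453854 (plus). The same-strand gene that shares exon bases with Map3k14, 1700028N14Rik, was not among the symbols counted.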

How the data were processed

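RNA-seq counts of sorted TAMs from 8 mice were used, 1 library per mouse. The count table was deposited by the authors as whole numbers without normalization. Reads were aligned to mm10 with bowtie2 2.2.3 and counted with RSEM 1.2.15 by the authors, and the submitters' processing notes also list TopHat2 and edgeR. The gene annotation and the use of strand were not given in the sources used here. Mice were grouped by their labels, in which S.C. mice are called IS.

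Fits were made separately for each comparison with edgeR 4.0.16 under R 4.3.3, with limma 3.58.1, after filterByExpr (minimum count 10, minimum total count 15) and TMM scaling, by the two-sided quasi-likelihood test with Benjamini-Hochberg adjustment over the genes tested. A call needed an unadjusted P under 0.05 and at least 2-fold, the study's criterion. The SE is the size of the log2 fold change divided by the square root of F. Log2 CPM used a prior count of 2, and ratios added 0.5 CPM. Of the symbols, 93.0% were found in GENCODE vM21. The paper states that treated and control mice came from the same colony and were housed together. The days of sorting were not given, so the spread may be partly technical. The totals of 14127506 to 17577466 counts cover counting error only. No 2 libraries had identical counts.

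The members and gene lists were chosen with earlier results of these data known. All members were named, and for each the 2 nearest profiles (mean of at least 5 CPM). From the pathway lists the 3 genes of smallest P in each comparison with DMSO could be named, and others are marked. Alternatives were no filter, a minimum of 1 CPM in 2 samples, scaling by RLE or by library size only, the likelihood ratio test, DESeq2 1.42.0, all 3 groups in 1 fit, a replicate block and leaving out each mouse. The length trend (loess, span 0.3), crossed numbers, leaving out 2 mice together and list counts without a mouse were added after seeing the data. The fits were tested on simulated data.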

Additional observations from a re-analysis of the deposited data

Results flagged for a closer look

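Rel and Nfkb2 differed between the routes by the test of S.C. against I.P. mice. The log2 difference of S.C. minus I.P. was 1.91 for Rel, with 78.7 and 17.9 CPM in S.C. mice and 7.84 to 22.2 in I.P. mice. For Nfkb2 it was 1.11, with 48.3 and 22.9 CPM against 13.9 to 19.3. Neither passed the adjustment over all genes (adjusted p = 0.412 and 0.459 by edgeR), and without S.C. mouse 2 the differences were 0.47 for both and did not pass. The exact dose of the I.P. mice was not given in the sources used here, and the paper calls the S.C. dose lower than its I.P. doses. Route and dose therefore cannot be told apart. No I.P. mouse stood apart from the other 3 for any member by Dixon's test, and groups of 2 mice could not be tested so.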

How the results depend on the processing

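The number of members called was 0 for I.P. over DMSO under every alternative, stayed at 1 for S.C. over DMSO under every alternative that kept all mice (0 to 4 when 1 mouse was left out), and stayed at 2 for S.C. over I.P. except in the replicate block (0 to 4 when mice were left out). Same-numbered mice correlated between -0.19 and 0.17 in their deviations over 9328 genes, with the highest value for I.P. mouse 1 and S.C. mouse 1. The deviations were taken from group means, so in a group of 2 mice they mirror each other. These correlations therefore cannot tell whether same-numbered mice shared a batch. With the replicate block 1 member was called in S.C. over I.P. (Rel, while Nfkb2 was 1.10 and did not pass), the call of Rel in S.C. over DMSO stayed, at 1.91, and Rel in I.P. over DMSO turned to -0.13. Mice 3 and 4 of the I.P. group have no same-numbered mouse in the other groups. They are alone in their blocks, so the blocked fold changes with I.P. rest on mice 1 and 2. Over all genes the block called 330, 429 and 391 genes for I.P. over DMSO, S.C. over DMSO and S.C. over I.P., against 243, 591 and 860, and with the numbers crossed 475 for S.C. over DMSO. Scaling by library size only turned Map3k8 to -0.036 for I.P. over DMSO, Rela to -0.12 for S.C. over DMSO and Chuk to -0.11 for S.C. over I.P. mice. Leaving out 1 mouse turned the sign of small differences. For I.P. over DMSO the ranges were -0.23 to 0.14 for Chuk, -0.37 to 0.24 for Ikbkb, -0.27 to 0.089 for Ikbkg, -0.14 to 0.55 for Nfkb1, -0.43 to 0.74 for Map3k8 and -0.051 to 0.71 for Rel. For S.C. over DMSO they were -0.79 to 0.36 for Chuk, -0.53 to 0.72 for Ikbkb, -0.68 to 0.76 for Ikbkg and -0.15 to 0.16 for Rela, and for S.C. over I.P. -0.65 to 0.46 for Chuk, -0.38 to 0.83 for Ikbkb and -0.53 to 0.88 for Ikbkg. Of the ratios, leaving out 1 mouse gave -0.176 to 0.093 for Relb over Rela, -0.306 to 0.299 for Rel over Rela and -0.081 to 0.231 for Ikbkb over Chuk in I.P. minus DMSO mice, and -0.131 to 0.48 for Nfkb2 over Nfkb1 in S.C. minus DMSO mice. Per kilobase of the longest transcript in DMSO mice Rela was at 25.9, Relb 4.88, Nfkb1 5.41, Chuk 19.2, Ikbkb 12.1, Map3k8 22.5 and Map3k14 0.873. Leaving out 1 mouse gave 116 to 361 genes called for I.P. over DMSO, 113 to 3432 for S.C. over DMSO and 632 to 2115 for S.C. over I.P., the high counts being from fits with a lone S.C. mouse, and all 3 groups in 1 fit gave 160 for I.P. over DMSO. With an adjusted p under 0.05, the likelihood ratio test and DESeq2 called 10 and 19 genes for I.P. over DMSO, 179 and 107 for S.C. over DMSO and 265 and 234 for S.C. over I.P. mice, against 0. The cause of these changes was not tested.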
